A study of Rattus norvegicus with 9 samples.

Results

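The comparison concerns rats whose brain haemorrhage was treated with Buyang Huanwu Decoction (BYHWD) and sham-operated rats, which make up 6 of the 9 small RNA libraries of the series, 3 in each group. The libraries were chosen by their group label, and all 530 tRNA fragments in the tables were considered. In the ICH + BYHWD group, male Sprague-Dawley rats of 180 to 220 g had 0.5 U of collagenase type VII in 2.5 µl of saline injected into the right globus pallidus, which causes an intracerebral haemorrhage (ICH), and then received the decoction by gavage, 4.36 g/kg daily over 21 days. Sham rats had the same surgery with 2.5 µl of saline and no collagenase. The remaining 3 libraries came from rats with the haemorrhage and no decoction (ICH), and they enter the fit for its estimate of the spread and appear below as a description. Tissue around the right globus pallidus was taken on day 21 in all groups, after perfusion with saline. The labels mention no gavage of the sham or ICH rats, so the decoction and the gavage itself cannot be told apart, and the haemorrhage and the decoction differ together between ICH + BYHWD and sham.

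Transfer RNAs can be cut into shorter RNAs that persist in the cell. Cleavage in the anticodon loop, in mammals carried out by the ribonuclease angiogenin under stress, gives the longer pieces called tiRNAs, and other cuts give the shorter tRNA-derived fragments (tRFs). Members of both classes have been described as regulators of translation, of RNA stability and of cell survival, and stress and ischaemia are known to raise tiRNA levels in brain. Buyang Huanwu Decoction is a herbal mixture of traditional Chinese medicine given after stroke. The tables name each fragment by an identifier only and give no sequence, parent tRNA or fragment class for any of them, so roles of single fragments are not given, and the labelled tissue could not be checked against marker genes.

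The library totals were 799227, 683782 and 1002327 tags in ICH + BYHWD 1, 2 and 3, and 735460, 715067 and 530827 tags in sham 1, 2 and 3. The listed fragments held 72.6 to 76.3% of these tags in ICH + BYHWD and 71.2 to 77.1% in sham. A level is given below in TPM, the unit of the file headers, which is the fragment's count scaled to the library total with no term for length. Whether the groups overlap for a fragment is judged in TPM unless another scale is named. The log2 fold changes were fitted on another scale, with TMM factors that adjust the counts between libraries, so overlap can differ on that scale. The lowest level listed above 0 was 145 to 149 TPM in ICH + BYHWD and 143 to 152 TPM in sham, so a 0 is read as unlisted and not as absent. Sham 3 stood apart from the other sham libraries. The Bray-Curtis distance, which is 0 for identical pools and 1 for pools with no fragment in common, was 0.104 between sham 1 and 2 but 0.193 and 0.176 from these to sham 3. Sham 3 lay at 0.126 to 0.158 from the ICH + BYHWD libraries, and among the other 5 libraries it was the nearest one to each of the 3 ICH + BYHWD libraries. The mean distance was 0.191 between the groups and 0.169 within them (exact permutation p = 0.5). A chi-square per degree of freedom, lower for more similar libraries, also took in the untreated haemorrhage. From sham 3 it was 44.4, 156 and 107.3 to ICH 1, 2 and 3. It was 96.9, 67.1 and 104.2 to ICH + BYHWD 1, 2 and 3, and 170.8 and 163.2 to sham 1 and 2. By that measure sham 3 was thus nearest to ICH 1, a library of the untreated haemorrhage.

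The first question was which fragments still differed from sham at day 21 in the treated rats. No fragment passed the test. With edgeR's quasi-likelihood test and Benjamini-Hochberg adjustment, 0 of 455 fragments tested (0%) were higher and 0 (0%) were lower in ICH + BYHWD when the adjusted p had to be under 0.05. The smallest adjusted p was 0.713. With no adjustment, p was under 0.05 for 19 fragments, of which 1 (0.22%) was higher and 18 (3.96%) were lower, against 22.75 expected by chance among 455 tests. Limma-voom and limma with trend also called 0. DESeq2 called 11 higher and 6 lower, but 15 of these 17 fragments were at 0 in some library. When sham 3 was left out, edgeR called 17 fragments higher and 0 lower, but 15 of the 17 were at 0 in some library.

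Most fragments were close to their sham level. Of the 338 fragments listed above 0 in all 6 libraries, the fitted fold change lay within 1.5-fold for 295 (87.3%). It was at least 2-fold lower in ICH + BYHWD for 6 fragments and at least 2-fold higher for 1. The log2 fold changes ran from -0.70 at the 5th to 0.53 at the 95th percentile, and their median standard error was 0.27. For 193 of the 338 (57.1%) the 95% interval, not adjusted for the number of fragments, stayed within 2-fold in both directions, so larger differences remain possible for the others. Directions were mixed at every level of abundance, and the medians below are small beside the standard errors and shift with the scaling. Among the 113 most abundant of these fragments 60 had a log2 fold change below 0 and 53 above it (median -0.03), and 9 had an unadjusted p under 0.05, all lower. Among the 112 of middle abundance the counts were 44 below and 68 above (median 0.06), and among the 113 least abundant 49 below and 64 above (median 0.04). The unadjusted p was under 0.05 for 8 fragments of middle abundance and for 1 of the least abundant, again all lower.

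**Figure D1:**
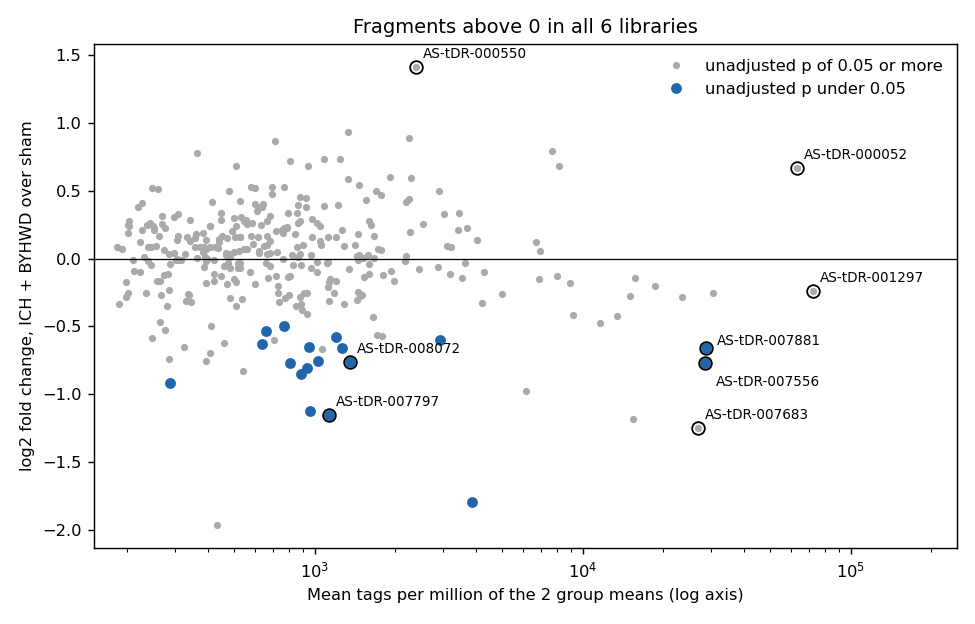
Each point is 1 of the 338 fragments above 0 in all 6 libraries, with the mean level (TPM) on a log axis and the edgeR log2 fold change of ICH + BYHWD over sham on the vertical axis. The 18 blue points have an unadjusted p under 0.05 and all lie below 0, and none passed after adjustment.

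AS-tDR-007797 had the smallest p among the fragments that were lower in the fit. It was at 518, 1039.8 and 700.4 TPM in ICH + BYHWD 1, 2 and 3, and at 1445, 1789 and 1279 TPM in sham 1, 2 and 3. Every treated library lay below every sham library. The log2 fold change was -1.15 (SE 0.27), with an adjusted p of 0.713 by edgeR. AS-tDR-008072 was at 982, 1092 and 1135 TPM in ICH + BYHWD, and at 1891, 1818 and 1189 TPM in sham. In TPM its groups did not overlap either, but sham 3 lay only just above the highest treated library. On CPM with TMM factors that gap was wider. Its log2 fold change was -0.76 (SE 0.18), with the same adjusted p of 0.713 by edgeR. DESeq2 called both of them lower, with adjusted p of 0.0022 for AS-tDR-007797 and 0.0048 for AS-tDR-008072. In the untreated haemorrhage the edgeR log2 fold change against the same sham libraries was -0.31 (SE 0.27) for AS-tDR-007797 and -0.73 (SE 0.18) for AS-tDR-008072.

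AS-tDR-009636 had a sham 3 level well below those of sham 1 and 2. It was at 548, 584 and 811 TPM in ICH + BYHWD, and at 1657, 1503 and 649.9 TPM in sham, so sham 3 lay within the treated range while sham 1 and 2 were well above it. The log2 fold change was -1.13 (SE 0.35), and it ran from -1.35 to -0.78 with 1 library left out. AS-tDR-008000 was at 510.5, 987 and 694 TPM in ICH + BYHWD against 939.5, 1277 and 1223 TPM in sham. In TPM, ICH + BYHWD 2 overlapped sham 1, but on CPM with TMM factors it did not. AS-tDR-008484 was at 383, 562 and 663 TPM in ICH + BYHWD against 733, 807 and 678 TPM in sham, without overlap. The smallest of these differences was that of AS-tDR-007769, at 680.0 ± 76.4 TPM in ICH + BYHWD and 862 ± 144 TPM in the sham libraries (SD, n = 3). In TPM its groups overlapped, with ICH + BYHWD 2 and 3 at 727 and 721 TPM and sham 3 at 699 TPM. Its log2 fold change was -0.50 (SE 0.16), which became -0.30 when sham 2 was left out. None of these 4 fragments passed, with an adjusted p of 0.749 for each by edgeR.

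**Figure D2:**
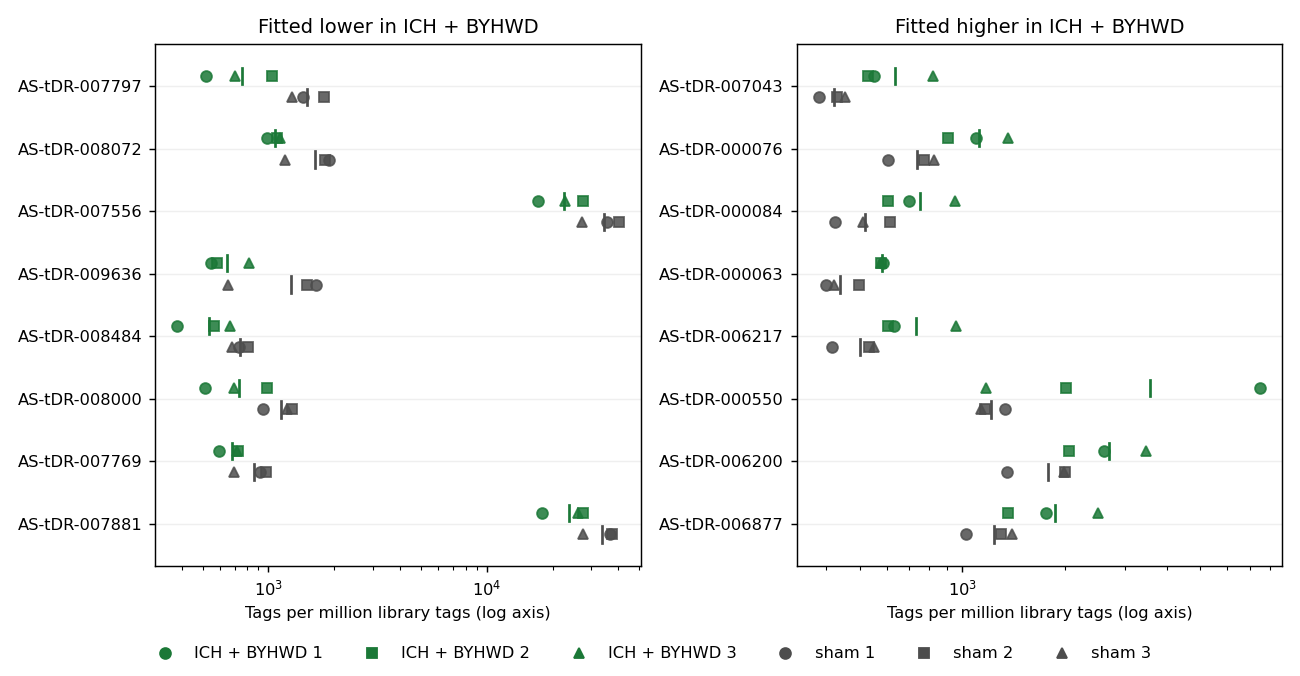
Levels in TPM (log axis) of the 8 fragments with the smallest p on each side, in the 3 ICH + BYHWD libraries above the 3 sham libraries, with the group mean as a vertical bar and the library number as the marker shape. On the left, sham 3 is the lowest sham library for 7 of the 8 fragments, and for AS-tDR-009636 it lies within the treated range of 548 to 811.

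The 8 fragments with the smallest p that were higher in the fit did not pass either. AS-tDR-007043 was at 551, 528 and 823 TPM in ICH + BYHWD, and at 379, 431 and 454 TPM in sham. All treated libraries were above all sham libraries, with ICH + BYHWD 3 the highest. The log2 fold change was 0.42 (SE 0.19), with an adjusted p of 0.997 by edgeR. AS-tDR-000076 was at 1099, 907 and 1367 TPM in ICH + BYHWD against 605, 775 and 827 TPM in sham. Its log2 fold change was 0.45 (SE 0.20), with no overlap. AS-tDR-000063 had the most even treated values, at 586, 576 and 579 TPM in ICH + BYHWD against 398, 498 and 422 TPM in sham. Its log2 fold change was 0.24 (SE 0.13), also with no overlap, and became 0.45 when sham 2 was left out. AS-tDR-006217 and AS-tDR-006200 had log2 fold changes of 0.38 (SE 0.21) and 0.44 (SE 0.26) and no overlap between the groups in TPM. On CPM with TMM factors the groups overlapped for both of these and for AS-tDR-000076. AS-tDR-000084 and AS-tDR-006877, with 0.38 (SE 0.20) and 0.43 (SE 0.25), overlapped. Leaving out ICH + BYHWD 2 gave 0.68 for AS-tDR-006200, 0.59 for AS-tDR-000084 and 0.69 for AS-tDR-006877. AS-tDR-000084 was at 0.61 without sham 2, and AS-tDR-006877 at 0.28 without ICH + BYHWD 3. In 6 of these 7 fragments ICH + BYHWD 3 was the highest of the 6 libraries, and AS-tDR-000063 was the exception. AS-tDR-000550 rested on a single library. It was at 7493 TPM in ICH + BYHWD 1 but at 2023 and 1176 TPM in ICH + BYHWD 2 and 3, against 1339, 1166 and 1134 TPM in sham, and its log2 fold change of 1.41 had an SE of 0.79. It became 0.23 when ICH + BYHWD 1 was left out. The 1 fragment that was higher at an unadjusted p under 0.05 was AS-tDR-007825, picked after its values were seen. It was unlisted in ICH + BYHWD 1 and in all sham libraries and stood at 290 and 174 TPM in ICH + BYHWD 2 and 3, so no fold is given. It was not particular to the treated libraries, as it stood at 362, 425 and 254 TPM in ICH 1, 2 and 3.

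A count without a model depended on the scale. On levels per library total, all 3 ICH + BYHWD libraries were above all 3 sham libraries for 34 of 515 listed fragments (6.6%) and below them for 14 (2.72%). On CPM with TMM factors the same count was 6 above and 32 below. The median log2 ratio of mean TPM in the 338 fragments was 0.19, while after TMM scaling the median fitted log2 fold change over the 455 tested fragments was 0.06 and over the 338 it was 0.03. The 34 fragments above had a median log2 ratio of 0.42 and the 14 below one of -0.64, over the 31 and 12 of them listed in all 6 libraries.

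The abundant fragments carried the largest shifts in tags. AS-tDR-007683, the sixth in mean abundance, held 1.72% ± 0.72 of all library tags in ICH + BYHWD and 3.67% ± 0.96 among sham libraries (SD, n = 3). It was at 10904, 25102 and 15475 TPM in ICH + BYHWD, and at 27660 TPM in sham 1, 46740.0 TPM in sham 2 and 35633 TPM in sham 3. The groups did not overlap, but the spread within them was wide, and the log2 fold change was -1.25 (SE 0.57, adjusted p = 0.997 by edgeR). AS-tDR-007744 was at 6610.1, 13006 and 10742 TPM in ICH + BYHWD against 15454, 24789 and 21402 TPM in sham. It too did not overlap, with a log2 fold change of -1.18 (SE 0.66). In the untreated haemorrhage the levels were 33244 ± 17161 TPM for AS-tDR-007683 and 20107 ± 14008 TPM for AS-tDR-007744 (SD, n = 3).

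AS-tDR-007556 and AS-tDR-007881, the fifth and the fourth in abundance, were also among the fragments with the smallest p. AS-tDR-007556 was at 17080, 27727 and 22756 TPM in ICH + BYHWD, and at 35712, 40378 and 27395 TPM in sham. ICH + BYHWD 2 overlapped sham 3. Its log2 fold change was -0.77 (SE 0.23, adjusted p = 0.749 by edgeR). AS-tDR-007881 was at 17930.0, 27463 and 26189 TPM in ICH + BYHWD against 36489, 37515 and 27482 TPM in sham. In TPM the groups did not overlap, although sham 3 and ICH + BYHWD 2 were almost level. On CPM with TMM factors the groups overlapped neither for this fragment nor for AS-tDR-007556. The log2 fold change of AS-tDR-007881 was -0.66 (SE 0.22, adjusted p = 0.749 by edgeR). In the untreated haemorrhage the log2 fold change against sham was -0.30 (SE 0.23) for AS-tDR-007556 and -0.34 (SE 0.22) for AS-tDR-007881.

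The groups overlapped for AS-tDR-001297 and AS-tDR-000052, the most abundant fragments of all. AS-tDR-001297 was at 74999, 82041 and 52918 TPM in ICH + BYHWD, and at 82314, 69451 and 71451 TPM in sham. The log2 fold change was -0.24 (SE 0.27), with overlap. AS-tDR-000052 was at 80957, 58753 and 102810 TPM in ICH + BYHWD, and at 22692, 20655 and 90839 TPM in sham 1, 2 and 3. Sham 3 lay within the treated range, and sham 1 and 2 were far below it. Its log2 fold change was 0.67 (SE 0.69, adjusted p = 0.997 by edgeR), and without sham 3 it was 1.83 with an adjusted p of 0.0479 by edgeR. In the untreated haemorrhage AS-tDR-000052 was at 120500, 142060 and 57606 TPM. The log2 fold change there against sham was 1.51 (SE 0.70, adjusted p = 0.507 by edgeR). The other 4 of the 10 most abundant fragments, AS-tDR-007516, AS-tDR-007639, AS-tDR-007579 and AS-tDR-008499, had log2 fold changes of -0.28 to -0.15 with overlapping groups, and each of these moved by more than 1.5 times when single libraries were left out.

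**Figure D3:**
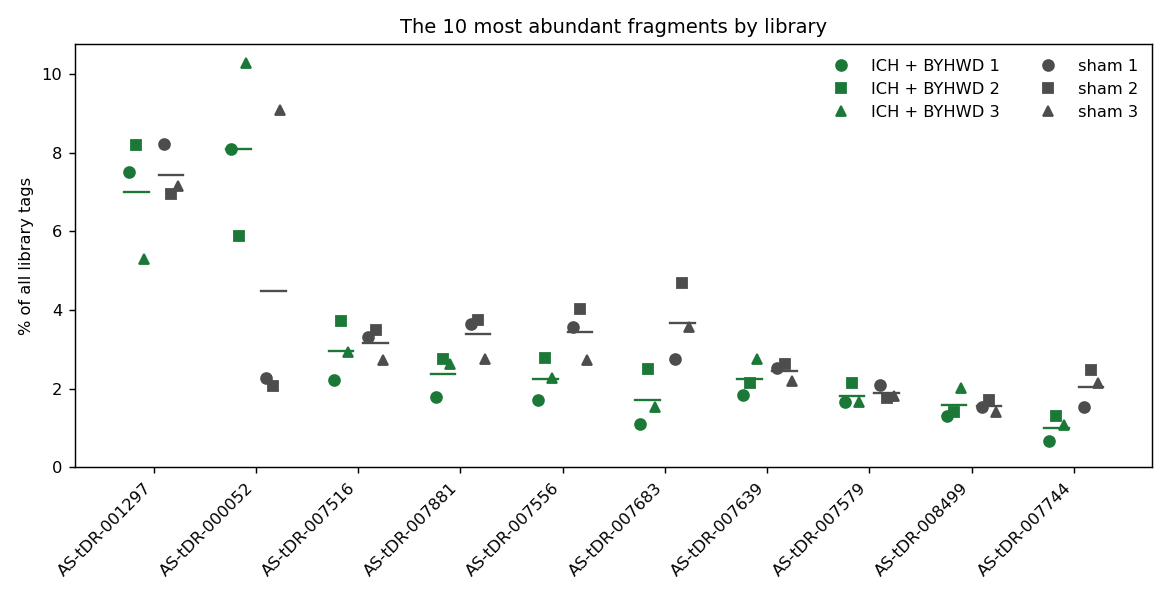
Share of all library tags (%) held by each of the 10 most abundant fragments, with the 3 ICH + BYHWD libraries left of the 3 sham libraries and the group mean as a horizontal bar. AS-tDR-007683, AS-tDR-007744 and, by a narrow margin, AS-tDR-007881 show no overlap between the groups, and AS-tDR-000052 in sham 3 sits with the treated libraries.

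The second question was how evenly the tags were spread over the fragments. The pool was more even in every ICH + BYHWD library than in every sham library by 5 of 8 measures, though the design cannot reach a p under 0.1. All are computed from the same fragment shares of a library, so the 5 are not independent results. When AS-tDR-001297, the most abundant fragment on average, was left out, the groups overlapped for 3 of these 5 measures, with an exact permutation p of 0.2 for the effective number, 0.3 for Pielou evenness and 0.2 for the share of the 10 most abundant, and stayed apart for the share of the 50 most abundant and the number holding 50% of the tags. The effective number of fragments, the exponential of the Shannon entropy, is the number of equally abundant fragments that would give the same diversity. It was 110.5, 100.5 and 106 in ICH + BYHWD 1, 2 and 3, and 96.9, 91.6 and 92.3 in sham 1, 2 and 3. The groups did not overlap, at a mean of 106 ± 5.02 in ICH + BYHWD against 93.6 ± 2.87 in sham (SD, n = 3). The exact permutation p was 0.1, which is the smallest this design allows, and 0.15 after adjustment over 12 tests. Pielou evenness, the entropy as a share of its largest possible value, was 0.779, 0.765 and 0.766 in ICH + BYHWD, and 0.760, 0.756 and 0.748 in sham, with the same exact p of 0.1. In the untreated haemorrhage the effective number was 85.2, 70.1 and 112, so those libraries lay on both sides of the sham range.

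**Figure D4:**
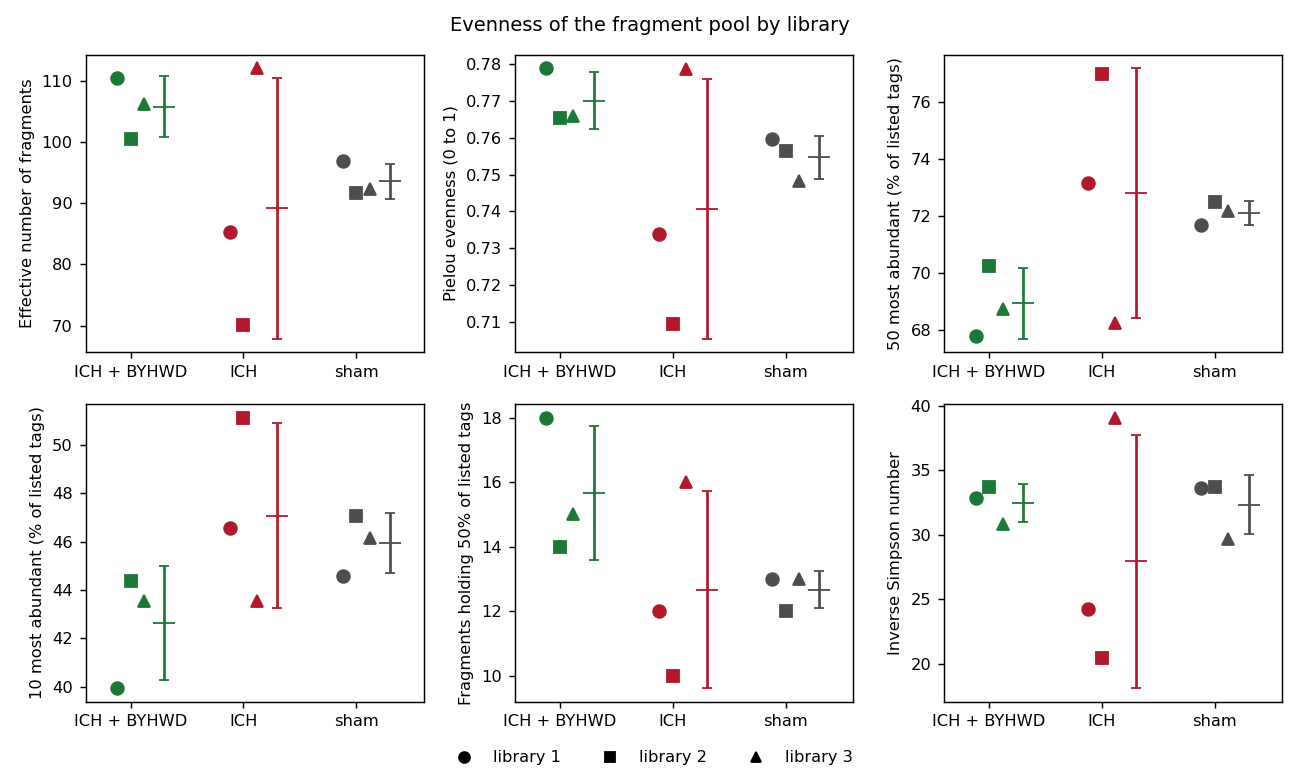
Measures of evenness for each library of the ICH + BYHWD, ICH and sham groups, with the group mean and SD beside the points and the library number as the marker shape. For the effective number, Pielou evenness, the shares of the 10 and 50 most abundant fragments and the number holding 50% of the listed tags, ICH + BYHWD and sham do not overlap, and for the inverse Simpson number they do.

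In the group means, the shift lay below the very top of the ranking. The 50 most abundant fragments of each library held 67.8, 70.3 and 68.7% of the listed tags in ICH + BYHWD and 71.7, 72.5 and 72.2% in sham (exact permutation p = 0.1, adjusted p = 0.15). The 10 most abundant held 39.9, 44.4 and 43.6% in ICH + BYHWD and 44.6, 47.1 and 46.2% in sham, with the same p, and ICH + BYHWD 2 came close to sham 1. The difference of -3.31 percentage points became -1.96 when ICH + BYHWD 1 was left out. The single most abundant fragment held 11.8% ± 1.41 in ICH + BYHWD and 11.02% ± 1.11 among sham libraries (SD, n = 3, exact permutation p = 0.6). The inverse Simpson number, which weights the top fragments most, was 32.5 ± 1.46 in ICH + BYHWD and 32.3 ± 2.28 among sham libraries (SD, n = 3, exact permutation p = 0.8). Ranks 2 to 10 held 30.8% ± 2.41 in ICH + BYHWD and 34.9% ± 2.19 in sham. By library these shares were 28.8, 33.5 and 30.1% in ICH + BYHWD and 33.0, 37.3 and 34.4% in sham, so ICH + BYHWD 2 overlapped sham 1. Ranks 11 to 50 held 26.3% ± 1.39 in ICH + BYHWD and 26.2% ± 0.85 in sham. Ranks 51 to 100 held 10.6% ± 0.38 in ICH + BYHWD and 9.51% ± 0.24 in sham, and ranks 101 to 200 held 11.01% ± 0.50 in ICH + BYHWD and 10.1% ± 0.06 among sham libraries (SD, n = 3). The lower mean share of ranks 2 to 10 in ICH + BYHWD thus stood beside higher mean shares of the top fragment and of ranks beyond 50. The bands of ranks from 2 on were not tested.

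It took 18, 14 and 15 fragments to hold 50% of the listed tags in ICH + BYHWD and 13, 12 and 13 in sham (exact permutation p = 0.1, adjusted p = 0.15). The difference in means of 3 became 1.83 when ICH + BYHWD 1 was left out. The number of fragments listed above 0 was 420, 413 and 442 in ICH + BYHWD and 412, 392 and 423 in sham, with overlap (exact permutation p = 0.4). The smallest sham library was sham 3, yet it listed the most fragments of that group. When each library was thinned to 409492 listed tags, the sum of sham 3, the effective number was 106 in ICH + BYHWD and 93.5 in sham. The lowest listed counts were 76 to 149 tags, and the mean numbers listed stayed at 425 and 409. The thinning therefore cannot show how depth affects which fragments are listed. When all fragments under 152 TPM in a library were set to 0, the effective number was 105 in ICH + BYHWD and 93.0 in sham. Counting every table row in place of every fragment, which weights fragments by how often they are repeated, turned the difference in the share of the 10 most abundant from -3.31 to 2.17 percentage points, and the groups then overlapped for all 5 measures.

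**Figure D5:**
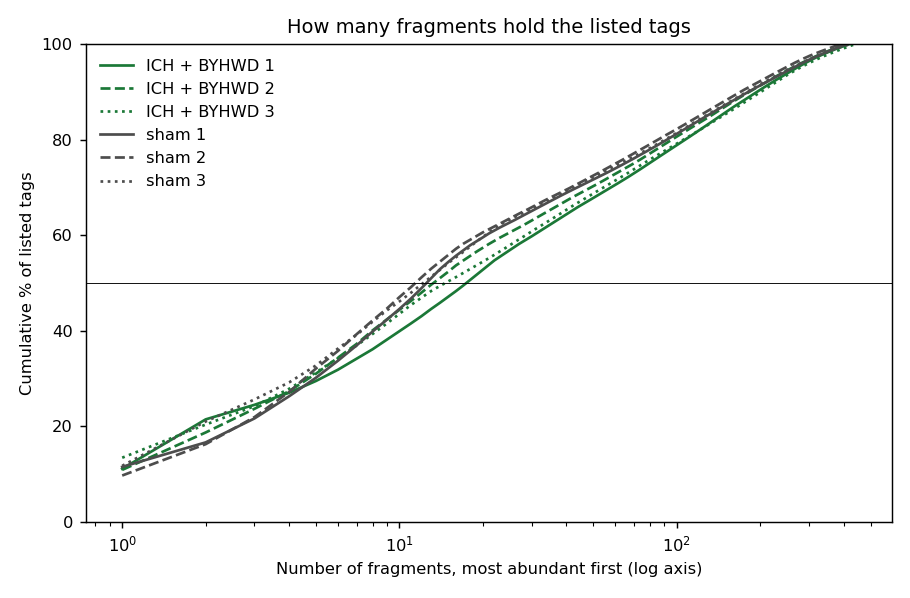
Cumulative share of the listed tags (%) against the number of fragments, most abundant first, on a log axis, for the 3 ICH + BYHWD and the 3 sham libraries. The horizontal line marks 50%, which the ICH + BYHWD curves cross at 14 to 18 fragments and the sham curves at 12 to 13.

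Few fragments accounted for much of the moved share. Between the group means, gains and losses came to 14.3 percentage points of the listed tags each. The 3 largest losses, those of AS-tDR-007683, AS-tDR-007556 and AS-tDR-007881, made up 41.5% of all losses, and the 3 largest gains made up 43.2% of all gains. The 3 fragments with the largest losses held a mean of 5.02, 4.74 and 4.65% of the listed tags in sham. Shifts in points scale with abundance, so some concentration in abundant fragments is built in. AS-tDR-000052 alone gained 4.86 points, at 10.8% ± 2.84 of listed tags in ICH + BYHWD and 5.95% ± 5.04 among sham libraries (SD, n = 3), and AS-tDR-007919 and AS-tDR-008347 gained 0.67 and 0.65 points. These fragments were picked after their values were seen. For all 3, sham 3 lay within the treated range and sham 1 and 2 below it. AS-tDR-008347 held 1.51, 0.87 and 1.85% in ICH + BYHWD, and 0.33 and 0.35% in sham 1 and 2 but 1.60% in sham 3. A loss of 0.56 points for AS-tDR-009298 came from 1 library, sham 1, which held 1.92% where sham 2 and 3 held 0.27 and 0.25%.

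Together 13 fragments filled the lists of the 10 most abundant of the 6 libraries. Of these, 7 were on the list of every library. AS-tDR-007744 was on the list of 2 sham libraries and of no ICH + BYHWD library, and AS-tDR-007919 on that of 1 ICH + BYHWD library and of no sham library.

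A fragment stands on 1 to 37 rows of the tables, a property that uses no measured value and whose meaning the sources used here do not state. Fragments on 5 or more rows held 71.0, 71.9 and 70.5% of the listed tags in ICH + BYHWD, and 73.0, 73.4 and 74.0% in sham. Fragments on 2 to 4 rows held 19.8% ± 0.42 in ICH + BYHWD and 18.3% ± 0.63 in sham, and those on 1 row held 9.09% ± 0.91 in ICH + BYHWD and 8.24% ± 0.13 among sham libraries (SD, n = 3). On 1 row, ICH + BYHWD 3 was highest at 10.1%, with 8.76% in ICH + BYHWD 1 and 8.40% in ICH + BYHWD 2, and the difference of 0.86 percentage points became 0.34 when ICH + BYHWD 3 was left out. For fragments on 5 or more rows the difference was -2.33 percentage points of the listed tags and -0.68 points of all library tags. In percent of the listed tags none of the 3 classes overlapped between the groups. Each had an exact permutation p of 0.1 (0.15 after adjustment over the 12 tests). In percent of all library tags the groups overlapped for fragments on 5 or more rows and for those on 1 row. As the shares of the listed tags add up to the whole pool, they are not independent of each other or of the evenness.

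Of the 530 fragments, 338 were listed in all 6 libraries and 15 in none of them. Another 92 were listed in more ICH + BYHWD than sham libraries, 60 in fewer, and 25 in the same number. Single libraries weighed on these counts. Of the 32 fragments in 1 ICH + BYHWD library and no sham library, most were in ICH + BYHWD 3, the largest of the 6 libraries. Of the 30 in 1 sham library and no ICH + BYHWD library, most were in sham 1. No fragment was listed in all 3 libraries of a group and in none of the other. There were 6 fragments in 2 ICH + BYHWD libraries and no sham library, and 6 in 2 sham libraries and no ICH + BYHWD library.

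For most fragments the ICH + BYHWD libraries varied more among themselves than the sham libraries did. Over the 338 fragments listed in all 6 libraries, the median SD of the log2 level was 0.33 in ICH + BYHWD and 0.23 in sham. The SD was larger in ICH + BYHWD for 230 fragments and larger in sham for 108. The median distance of a library from its group mean was 0.18, 0.23 and 0.30 on the log2 scale in ICH + BYHWD 1, 2 and 3, and 0.15, 0.17 and 0.16 in sham 1, 2 and 3. ICH + BYHWD 3 was thus the farthest from its group mean, and without it the difference between the median SDs turned to -0.05 from 0.11 on the log2 scale. With 1 value per group this was not tested.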

How the data were processed

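Small RNA was sequenced from 9 rat brain samples, of which 3 ICH + BYHWD and 3 sham libraries were compared. Per the labels' protocols, RNA was pretreated to remove tRNA modifications, inserts of 15 to 50 nt were selected, and libraries were run for 50 cycles. Per the submitters' processing notes, FastQC, cutadapt and Novoalign 2.07.11 were used, with hg19, a human assembly, as the build listed. What that build was used for with rat reads, how fragments were annotated and how tags were counted is not stated in the sources used here. The deposited tag counts, per the file headers, are whole numbers without normalization. The authors' TPM column equals the count over 1 library total per file, and served to recover that total. The 2122 rows of a table hold 530 fragments, 347 of them on several rows with equal values, and 1 row each was kept.

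The test was edgeR 4.0.16 (R 4.3.3): filterByExpr by group (minimum count 10, 455 fragments left), TMM factors, robust quasi-likelihood fitting over the 9 libraries, and Benjamini-Hochberg adjustment over the 455. The SE is the absolute log2 fold change over the root of F. The step was tested on counts simulated with dispersions estimated from these libraries. It called 22 of 100 fragments with a true 2-fold change, 53 of 100 with a true 4-fold change and 2 of 255 unchanged ones. A count of 0 calls thus does not exclude differences of that size. DESeq2 1.42.0 and limma 3.58.1 were alternatives, and DESeq2 left 87 fragments without an adjusted p. For single values per library an exact permutation test (two-sided, 20 assignments, smallest p 0.1) was used, adjusted over 12 tests. Fragments named are those with the smallest p, 8 on each side, among those above 0 in all 6 libraries and the 10 most abundant. The rule also took any past the threshold or listed in all 3 libraries of 1 group only, and found none. Members, measures and naming rule were chosen with earlier results of these data known. Library numbers are in accession order. The labels name no batch. Whether each library is a separate rat is not stated, so a p-value here reflects only how these libraries vary, which may be technical. No 2 libraries agreed within sampling noise.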

Additional observations from a re-analysis of the deposited data

How the results depend on the processing

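No paired analysis was possible because no number in the labels is common to libraries of different groups. In all, 29 planned settings and 4 added after seeing the data were run. In the order higher and lower, the edgeR counts of 0 and 0 at an adjusted p under 0.05 became 11 and 6 with DESeq2, and 0 and 3 with DESeq2 on the 311 fragments above 0 in all 9 libraries. With 1 library left out they ran from 0 to 17 higher, with 0 lower, and all 17 calls came without sham 3. They stayed at 0 and 0 under the other settings, a threshold of 0.1 included. When sham 3 was left out and only the 311 fragments were tested, they were also 0 and 0.

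The counts of 1 and 18 at an unadjusted p under 0.05 became 3 and 15 with RLE, 1 and 11 with upper-quartile and 2 and 6 with no scaling factors. They were 2 and 7 without the filter, 19 and 29 with DESeq2, 5 and 28 with limma-voom, 14 and 19 with limma with trend, and 0 and 20 with the 6 libraries alone. On the 311 fragments they were 0 and 22, and 7 and 23 with DESeq2. With zeros at the lowest listed count they were 2 and 15, with recovered library totals 4 and 12, and with those totals and no factors 2 and 2. With sums of counts from before the filter they were 4 and 12. With 1 library left out, 1 to 52 were higher and 2 to 23 lower. The 52 came without sham 3 (17 on the 311 fragments), and the 2 lower without sham 1, with 3 lower without sham 2, 4 without ICH 1 and 8 without ICH + BYHWD 3. With no scaling the median log2 fold change was 0.19 in place of 0.06, and directions are relative to it. The cause of these changes was not tested, except that fewer fragments or libraries enter some fits.

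The 34 fragments above and 14 below without overlap became 6 and 32 with TMM factors, and 49 to 100 above and 15 to 52 below with 1 library left out, which by construction allows more. Both highest sums came without sham 3 (100 and 47) and without ICH + BYHWD 2 (81 and 52). The inverse Simpson difference of 0.13 was -10.2 on all rows, -0.26 on the 311 fragments, -1.36 without the most abundant fragment, and -1.18 to 0.94 with 1 library left out. The share of the 10 most abundant turned to 2.17 points on all rows. The other evenness and row class differences kept their direction in every setting run, but not their separation. On all rows the exact permutation p was 0.2 for the effective number, 0.3 for Pielou evenness, 0.5 for the number holding 50% of the tags and 0.8 for the share of the 50 most abundant, whose difference of -3.17 became -0.39 points. The leave-one-out range was 9.77 to 14.8 for the effective number when 1 library was left out. The distance difference of 0.02 ran from -0.0079 to 0.055 with 1 library left out, and was below 0 without sham 1 or sham 2. The difference in median SD of 0.11 ran from -0.053 without ICH + BYHWD 3 to 0.16 without sham 3.

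Of 576 alternative log2 fold changes for the 24 named fragments, 567 kept their direction and side of the threshold and 5 passed it. These were AS-tDR-007797 and AS-tDR-008072 in both DESeq2 fits and AS-tDR-000052 without sham 3. The 4 that turned were small, at 0.0015 for AS-tDR-007579 without sham 1 and 0.016 for AS-tDR-008499 with recovered totals and no factors. With 1 library left out, AS-tDR-001297 ran from -0.31 to 0.027, AS-tDR-007579 from -0.26 to 0.0015 and AS-tDR-008499 from -0.24 to 0.024. The listing minimum near 143 to 152 TPM bounds what any value close to it can show.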

Other observations

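The fragments that differed without overlap fell unevenly over the identifier numbers, a pattern seen only after the values were known and therefore given without a test. The sources used here do not say what the numbers stand for. Fragments numbered up to AS-tDR-007000 made up 211 of the 515 listed in the 6 libraries (41.0%). They were 24 of the 34 fragments (70.6%) with all ICH + BYHWD libraries above all sham libraries in level per library total, and 1 of the 14 (7.14%) below. On CPM with TMM factors they were 5 of the 6 above and 1 of the 32 below. The bands within this split were not alike, since numbers between 1000 and 5000 had 2 above, 1 below and a median log2 fold change of -0.04, and those between 8000 and 9000 had 4 above, 5 below and a median of 0.06. All 18 fragments that were lower at an unadjusted p under 0.05 had a higher number than that, as did 263 of the 455 tested (57.8%), and 12 of them lay between 7000 and 8000, as did 98 of the 455 (21.5%). Fragments numbered up to AS-tDR-007000 held 52.2, 44.9 and 47.4% of the listed tags in ICH + BYHWD 1, 2 and 3, and 38.6, 37.0 and 43.9% in sham 1, 2 and 3. They held 46.3, 42.8 and 42.7% in ICH 1, 2 and 3. The most abundant of them, AS-tDR-000052 and AS-tDR-001297, weigh on these shares. After TMM scaling the median log2 fold change of ICH + BYHWD over sham was 0.11 over the 192 tested fragments numbered up to 7000 and -0.03 over the 263 with higher numbers.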
